A study of Mus musculus with 2 samples.

Results

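The genes described here are 9 genes of the glycolytic pathway and its glucose supply (Slc2a1, Hk2, Pfkp, Aldoa, Gapdh, Pgk1, Eno1, Pkm and Ldha) and Hif1a, which encodes the oxygen-regulated subunit of hypoxia-inducible factor 1. They were chosen by symbol, and all 10 were found among the 32285 genes of the deposited count matrices. Single-cell 3′ RNA sequencing had been done on the stromal vascular fraction of mouse epididymal white adipose tissue, the cells that remain when fat is digested with collagenase and the floating adipocytes are removed. Both groups had been fed a high-fat diet for 10 weeks. One group, with Camk2d conditionally deleted in its myeloid cells (Camk2d-CKO, called the knockout below), gave 1 library, and the Wild-type group gave 1 library. The labels give neither the Cre line nor the deleted exons, neither the age of the mice nor how many mice went into a library, and a description field names embryonic hindlimb although every other label names adipose tissue. With 1 library per genotype there is no replicate spread: no test between genotypes was possible, genotype and library cannot be told apart, and all intervals below are exact 95% intervals for counting error only.

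Glycolysis splits glucose into pyruvate in the cytosol, yielding ATP, and lactate dehydrogenase regenerates the NAD+ that the pathway needs. Hypoxia-inducible factor 1 is a dimer of HIF-1α and ARNT; HIF-1α protein is degraded when oxygen is ample and accumulates when it is scarce or when macrophages and T cells are activated, so its control lies largely beyond the level of its mRNA. Many genes of the pathway carry binding sites for the factor, whose core motif is ACGTG or GCGTG. In obese fat, macrophages that gather lipid around dying adipocytes (marked by Trem2, Gpnmb and Cd9) and perivascular resident macrophages (marked by Lyve1, Folr2 and Cd163) form different states. Camk2d encodes the delta subunit of a calcium/calmodulin-dependent protein kinase.

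The genes lie on 7 chromosomes of the mouse build GRCm38 (mm10), with gene bounds from GENCODE vM21, and all 10 are protein coding. Slc2a1 (chr4:119108711-119137983, plus strand) encodes the glucose transporter GLUT1. Hk2 (chr6:82725025-82774454, minus strand) encodes hexokinase 2, which traps glucose as its 6-phosphate, and Pfkp (chr13:6579768-6648777, minus strand) the platelet-type phosphofructokinase of the committed step. Aldoa (chr7:126795234-126800751, minus strand) encodes the aldolase that splits the 6-carbon sugar. Gapdh (chr6:125161715-125166467, minus strand), Pgk1 (chrX:106187100-106203699, plus strand) and Eno1 (chr4:150236721-150248879, plus strand) encode the dehydrogenase, kinase and enolase of the lower pathway. Pkm (chr9:59656368-59679375, plus strand) encodes pyruvate kinase, and Ldha (chr7:46841475-46855627, plus strand) the A subunit of lactate dehydrogenase. Hif1a lies at chr12:73901375-73947530 on the plus strand. The reads come from the 3′ ends of transcripts, so the splice forms of Pkm (PKM1 and PKM2) were not told apart.

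All 10 genes matched the RefSeq table of mouse promoters (build GRCm38.p6, windows of 300 bases from 250 before to 50 after a start), with 16 starts in all. The motif ACGTG, searched on both strands (CACGT on the other), occurred at a start of 8 of the 10 genes, Pfkp and Eno1 being without it, and at 9 of the 16 starts. Of all 32851 RefSeq promoters in the table, 19.6% hold it; 32.4% hold GCGTG and 43.8% hold at least 1 of the pair, as did 14 of the 16 starts. The palindrome CACGTG is counted once on each strand and is also the motif of E-box factors. Of the 6 windows below, 5 show where the motif lies in members described at length, and that of Pfkp is a window without it: Slc2a1 (chr4:119108495-119108794, plus), Hk2 (chr6:82774405-82774704, minus), Pkm at its second start (chr9:59656977-59657276, plus), Ldha at its first start (chr7:46845554-46845853, plus), Hif1a (chr12:73907617-73907916, plus) and Pfkp (chr13:6648722-6649021, minus). Capitals mark ACGTG or CACGT only, and overlapping matches run together. GCGTG is not marked, and the Pfkp window holds 4 matches of it. All 10 genes held at least 1 of the pair at a start. A match is a string of letters and not a measured binding site.
Slc2a1: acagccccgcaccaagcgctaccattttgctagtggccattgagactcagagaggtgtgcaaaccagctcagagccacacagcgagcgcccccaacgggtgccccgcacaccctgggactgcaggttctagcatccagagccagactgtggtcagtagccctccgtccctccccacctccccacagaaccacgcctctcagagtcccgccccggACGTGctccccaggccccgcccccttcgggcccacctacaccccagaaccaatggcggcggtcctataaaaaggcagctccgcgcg
Hk2: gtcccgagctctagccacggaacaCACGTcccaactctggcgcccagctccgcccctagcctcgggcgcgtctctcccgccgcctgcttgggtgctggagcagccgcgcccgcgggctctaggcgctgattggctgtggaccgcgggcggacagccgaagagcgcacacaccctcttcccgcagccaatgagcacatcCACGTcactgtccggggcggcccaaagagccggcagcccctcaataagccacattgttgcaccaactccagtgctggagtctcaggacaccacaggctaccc
Pkm: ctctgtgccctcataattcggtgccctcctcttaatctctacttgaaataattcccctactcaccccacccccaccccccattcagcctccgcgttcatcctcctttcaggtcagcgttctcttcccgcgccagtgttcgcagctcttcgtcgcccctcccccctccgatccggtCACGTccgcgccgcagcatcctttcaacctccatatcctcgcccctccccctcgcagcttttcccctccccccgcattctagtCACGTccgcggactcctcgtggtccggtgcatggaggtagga
Ldha: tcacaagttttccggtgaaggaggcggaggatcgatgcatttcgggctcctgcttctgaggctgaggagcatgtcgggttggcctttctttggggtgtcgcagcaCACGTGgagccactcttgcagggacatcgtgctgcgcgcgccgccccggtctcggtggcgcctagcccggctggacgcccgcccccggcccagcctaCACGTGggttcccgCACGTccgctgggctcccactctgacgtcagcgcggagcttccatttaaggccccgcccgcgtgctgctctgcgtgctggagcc
Hif1a: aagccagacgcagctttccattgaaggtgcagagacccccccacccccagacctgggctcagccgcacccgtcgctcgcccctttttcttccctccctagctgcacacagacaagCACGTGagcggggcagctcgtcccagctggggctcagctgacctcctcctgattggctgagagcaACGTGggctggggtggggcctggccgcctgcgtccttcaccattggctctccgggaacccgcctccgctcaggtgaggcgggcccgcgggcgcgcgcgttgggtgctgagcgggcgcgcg
Pfkp: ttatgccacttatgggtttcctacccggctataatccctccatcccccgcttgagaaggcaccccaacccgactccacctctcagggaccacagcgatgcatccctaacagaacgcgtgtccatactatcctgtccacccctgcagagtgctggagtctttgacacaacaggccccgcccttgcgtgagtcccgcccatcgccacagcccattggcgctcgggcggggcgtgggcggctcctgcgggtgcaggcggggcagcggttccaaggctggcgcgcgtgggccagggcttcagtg
Ldha held the most ACGTG matches of the 16 windows, 5. They lie within 2 copies of CACGTG and 1 further CACGT, with the nearest to the start 34 bases before it. Hif1a held 3, Hk2, Pgk1 and the second Pkm start 2 each, and Slc2a1 1, at 36 bases before the start.

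The knockout library held 10631 barcodes and 87015918 unique molecular identifiers (UMIs, counts of separate transcript molecules), the wild-type library 15555 barcodes and 75436677 UMIs. After filtering, 9635 and 15332 cells were kept, with medians of 8315 and 3134 UMIs, and 48 barcode sequences occurred in both. Cells were gated by the summed level of marker genes into 9 classes, which took 7433 knockout and 7726 wild-type cells; 22.3% and 49.4% of kept cells stayed ungated. The macrophage-like gate held 1027 and 1687 cells, the progenitor-like gate (fibroblasts and adipose progenitors) 4226 and 3119, and the T-like gate 1189 and 1007. As for the labelled tissue, markers of stromal, vascular and immune cells of fat were present, mature adipocyte markers summed to at most 19.7 CPM in macrophage-like and progenitor-like cells, and 9 knockout barcodes carried sperm transcripts. Free RNA, meaning RNA from broken cells, was estimated from 189 knockout and 2992 wild-type barcodes that carry macrophage and progenitor markers together. By this estimate it made up 5.31% of macrophage-like UMIs in the knockout library and 14.5% in the wild type. In T-like cells it made up 6.07% and 24.9%. Whether such barcodes hold free RNA alone was not tested. The marker limits that picked them enter the shares, and some predicted levels below exceed the measured ones. Camk2d itself was at 26.2 CPM (327 UMIs, knockout) and 45.0 CPM (628 UMIs, wild type) in macrophage-like cells; a 3′ tag outside the deleted exons would not check the deletion.

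Levels are given as CPM, a gene's UMIs added up within a class and scaled to the same total in every class and library, and a level is compared only with levels of the same gene. In 8 of the 10 genes the class with the highest level was the same in both libraries, the exceptions being Aldoa and Pgk1. At the entry of the pathway the 3 genes had 3 different leading classes: natural killer-like cells for Slc2a1, progenitor-like cells for Hk2 and dendritic-like cells for Pfkp. From Gapdh to Ldha the lower enzymes mostly had their highest level in monocyte-like cells, with cells of all depths added up. Hif1a had its highest level in T-like cells. In erythroid-like cells free RNA alone would give between 70.3% and 316% of each level where a UMI was seen. These levels are left out of the class by class descriptions of each gene. Erythroid-like cells return as a background for detection, in the comparison of genes across classes and among the flagged results.

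**Figure D1:**
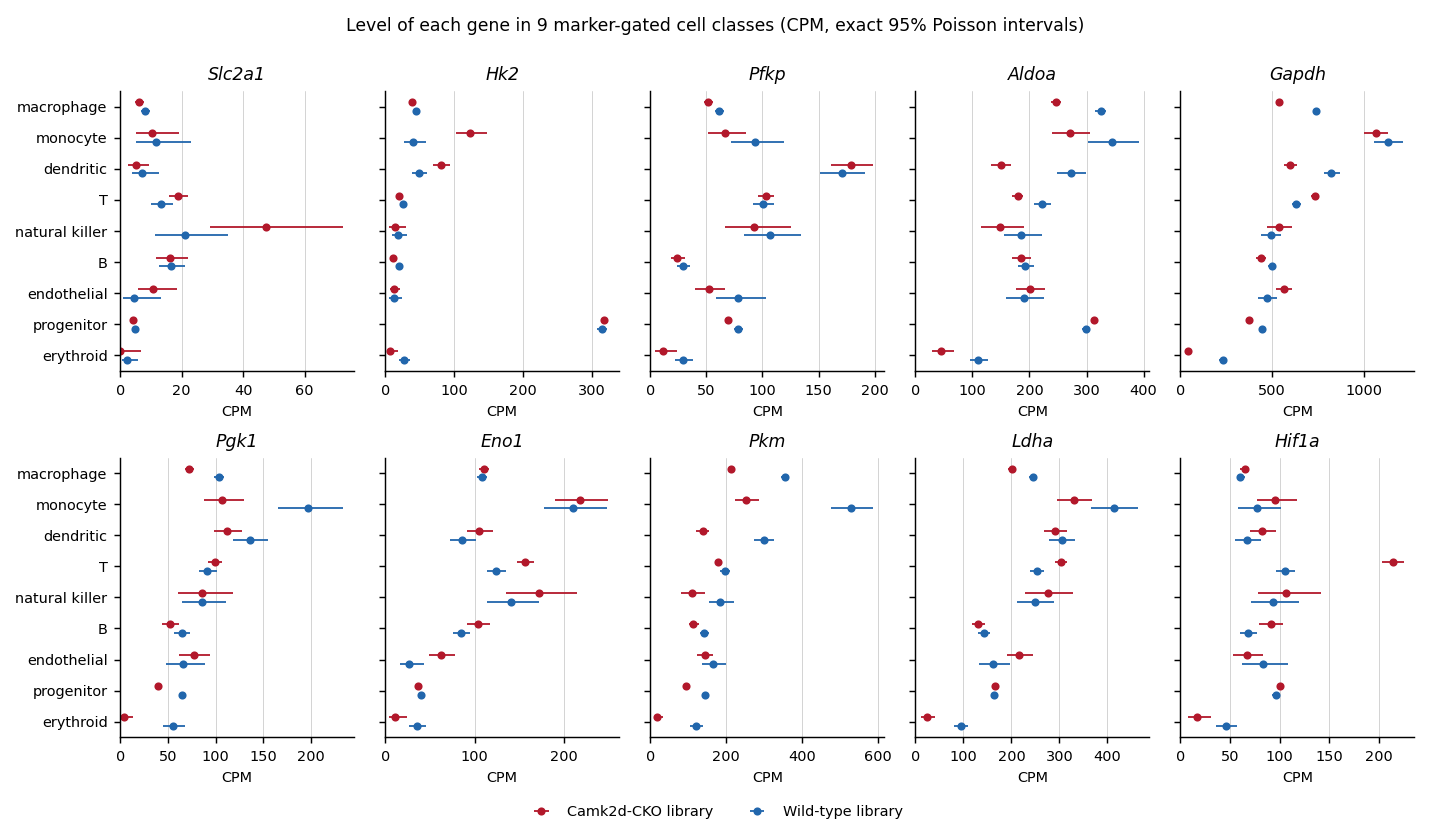
Level of each gene (horizontal axis, CPM, linear, a separate scale for each gene) in the 9 gated classes (rows) of the knockout (red) and wild-type (blue) libraries; points are summed levels and bars exact 95% Poisson intervals. Hk2 stands out in progenitor-like cells of both libraries (318 and 314 CPM), and Hif1a in T-like cells of the knockout library (214 CPM).

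Slc2a1 was sparse everywhere. Its level in natural killer-like cells was 47.4 CPM (29.4 to 72.5, 21 UMIs) in the knockout library and 21.0 CPM (11.5 to 35.2, 14 UMIs) in the wild type. T-like cells had 18.8 and 13.2 CPM, macrophage-like cells had 6.09 and 8.17 CPM, and progenitor-like cells 4.1 and 4.89 CPM. In the wild type the interval of natural killer-like cells overlapped that of the next class, B-like cells at 16.4 CPM, so the order at the top holds beyond counting error only in the knockout.

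Hk2 had the sharpest pattern of the 10 genes. Progenitor-like cells carried 318 CPM in the knockout (312.5 to 323) and 314 CPM in the wild type (307 to 322). Macrophage-like cells carried 38.5 and 44.8 CPM, of which free RNA would give 25.2% and 22.2%. The ratio of progenitor-like to macrophage-like levels was 8.25 in the knockout library and 7.02 in the wild type. In natural killer-like, B-like and endothelial-like cells, whose Hk2 levels ranged from 10.7 to 19.4 CPM, free RNA alone would give 67.3% to 154% of the level. Thinned to 2000 UMIs per cell, Hk2 was seen in 32.3% of knockout and 31.2% of wild-type progenitor-like cells (median depths of 10115.5 and 6854 UMIs; 381 and 236 shallower cells left out). The same share was 6.0% and 8.60% in macrophage-like cells and 2.02% and 1.58% in erythroid-like cells (median depths of 2171.5 and 2112 UMIs). Without thinning the progenitor-like shares were 55.8% and 49.5%.

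Pfkp, the phosphofructokinase, was led by conventional dendritic-like cells, with 179 CPM (161 to 199) in the knockout library and 171 CPM (151 to 192) in the wild type. T-like cells had 103 and 101 CPM, and natural killer-like cells 92.6 and 106 CPM; these classes overlapped within each library. B-like cells had 23.8 and 29.1 CPM, and macrophage-like cells 51.5 and 61.5 CPM. The dendritic-like interval lay above that of every other class in both libraries.

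Aldoa had no single leading class. Progenitor-like cells led in the knockout with 314 CPM and monocyte-like cells in the wild type with 345 CPM, where macrophage-like cells at 325 CPM overlapped them. T-like and B-like cells were between 179 and 222 CPM. Gapdh, which oxidises glyceraldehyde 3-phosphate, was highest in monocyte-like cells (1063 and 1132 CPM) and, erythroid-like cells aside, lowest in progenitor-like cells (372 and 446 CPM). Among cells of 4000 to 12000 UMIs, T-like cells passed monocyte-like cells for Gapdh in the knockout (650 against 624 CPM). In the wild type they did not (645 against 805 CPM). Pgk1, which makes the first ATP of the pathway, stood at 112 and 136 CPM in dendritic-like cells and at 107 and 197 CPM in monocyte-like cells. Eno1, the enolase, was at 218 and 211 CPM in monocyte-like cells and at 37.2 and 40.4 CPM in progenitor-like cells. Gapdh, Pgk1 and Eno1 were thus low in progenitor-like cells of both libraries, where Hk2 was high.

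Pkm was highest in monocyte-like cells (252 and 529 CPM), followed by macrophage-like cells (212 and 354 CPM). Progenitor-like cells had 93.3 and 143 CPM. Ldha was at 330 and 414 CPM in monocyte-like cells and at 303 and 253 CPM in T-like cells, with the lowest level outside erythroid-like cells in B-like cells (131 and 143 CPM). With cells of all depths added up, monocyte-like cells led for Pkm and Ldha in both libraries. For Ldha their interval overlapped that of T-like cells in the knockout. Among cells of 4000 to 12000 UMIs, monocyte-like cells still led for Pkm (279 and 324 CPM). They did not lead for Ldha in that range, with 219 and 221 CPM against 281 and 260 CPM in T-like cells. For Pkm of the knockout, T-like cells (169 CPM) passed macrophage-like cells (147 CPM) there. The part of depth in these orders was not tested.

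Counted over all 10 genes, 2 were at least 1.5-fold higher in progenitor-like than in macrophage-like cells of both libraries, Hk2 and Hif1a, against 21.4% of 2631 genes with a mean of at least 50 CPM. Lower by as much in both libraries were 3, Pgk1, Eno1 and Pkm, against 26.3% of those genes; 9 of the 10 reached that level, Slc2a1 not. These shares of the members are near or little above the shares of all genes. Eno1 had the largest gap among the 3, with a level in macrophage-like cells 2.98 times that in progenitor-like cells in the knockout library and 2.69 times in the wild type. For Pkm these ratios were 2.27 and 2.48, and for Pgk1 1.83 and 1.60.

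Within progenitor-like cells Hk2 differed with an inflammatory programme. Cells were split by the summed level of Ptx3, a secreted pattern-recognition protein, and Cxcl1, a neutrophil-attracting chemokine, a pair chosen after values of these data were seen. With neither transcript, Hk2 was at 115 CPM in the knockout library and 223 CPM in the wild type. It was at 218 and 339 CPM up to 500 CPM of the pair, at 343 and 410.5 CPM from 500 to 2000 CPM, and at 410.5 and 482.5 CPM from 2000 CPM on. The level was higher in each further stratum of both libraries, and the wild type lay above the knockout in every stratum, by 0.95 on the log2 scale in the first and 0.23 in the last. Over all progenitor-like cells the levels were nearly the same (log2 ratio 0.02, -0.03 to 0.06), and the libraries filled the strata differently: 35.1% of knockout but 4.1% of wild-type progenitor-like cells were in the highest stratum, and 17.5% and 46.0% in the lowest. From the lowest to the highest stratum Hk2 was 3.56-fold higher in the knockout library and 2.16-fold higher in the wild type. It was the only member at least 1.5-fold higher in both libraries, against 4.76% of 2478 genes. Hif1a was 1.49-fold higher in both libraries, and Ldha 1.59-fold and 1.25-fold. A split of the same cells by Dpp4 and Pi16, markers of early interstitial progenitors, gave no such order: Hk2 was at 296 CPM with 3 or more UMIs of the pair and 322 CPM with none in the knockout, and at 343 and 296 CPM in the wild type. Depth moved with the strata of Ptx3 and Cxcl1, with median UMIs from 6646 to 10977 in the knockout library and from 5715.5 to 8372 in the wild type; its part in the result was not tested.

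**Figure D2:**
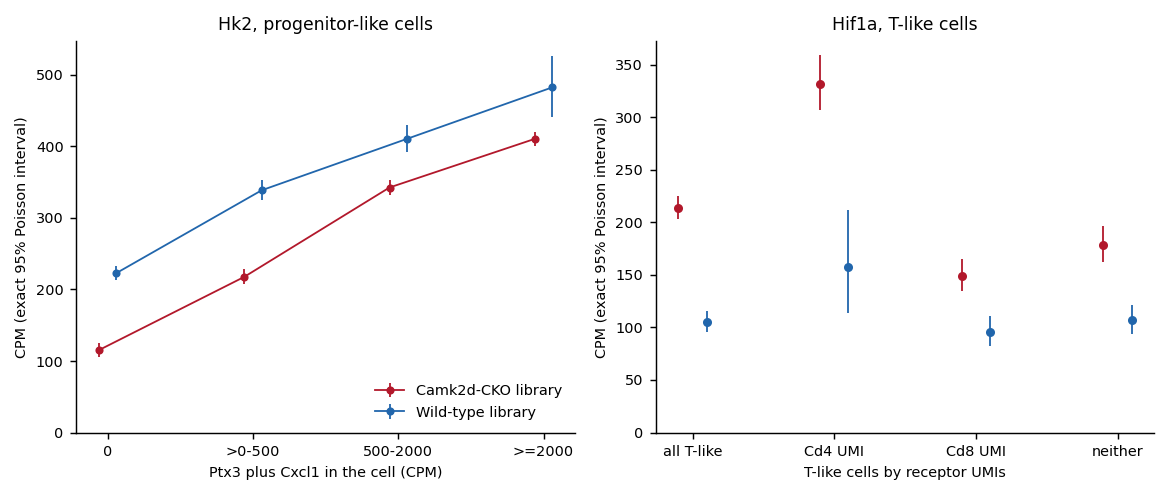
Left, Hk2 in progenitor-like cells split by the summed level of Ptx3 and Cxcl1 in the cell (horizontal axis, CPM); right, Hif1a in all T-like cells and in those with a Cd4 UMI, a Cd8a or Cd8b1 UMI, or neither; vertical axes are CPM with exact 95% Poisson intervals, knockout red and wild type blue. Hk2 is higher in each further stratum of both libraries, and Hif1a is higher in the knockout in each of the 3 T-like subsets.

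Between the libraries, progenitor-like cells had less Pgk1 (39.7 against 64.6 CPM, log2 ratio -0.70, -0.81 to -0.60) and less Pkm (93.3 against 143 CPM, -0.61, -0.68 to -0.54) in the knockout. With estimated free RNA subtracted, these ratios were -0.48 and -0.35, under 1.5-fold. The other 8 genes lay between -0.26 for Gapdh and 0.07 for Aldoa.

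In macrophage-like cells, the cells that the Camk2d deletion is meant to reach, most glycolytic genes were lower in the knockout library than in the wild type, by less than 1.5-fold. Pkm was the exception, with 212 CPM (204 to 220, 2645 UMIs) in the knockout library and 354 CPM (344 to 364, 4939 UMIs) in the wild type, a log2 ratio of -0.74 (-0.81 to -0.67). Over the 10 genes, 1 was at least 1.5-fold lower, against 2.62% of 2634 genes, and 0 were at least 1.5-fold higher, against 3.95%. With median-of-ratios scaling, 43 genes were lower and 130 higher, in place of 69 and 104. Of the 10, 8 reached the mean of 50 CPM that those genes had to reach, Slc2a1 and Hk2 being below it. The ratio was below 0 in 8 of 10 genes, and the median of the 10 was -0.34 against -0.07 over all 2634 genes. Among cells of 4000 to 12000 UMIs (388 and 1099), 5 of the 10 were 1.5-fold lower, against 4.94% of 2590 genes. Slc2a1 and Hk2 were among the 5 but below the mean of 50 CPM that the 2590 genes had to reach. Slc2a1 rests on 14 against 55 UMIs with an interval that includes 0 (-1.66 to 0.16). With a stricter gate, which put Pkm at -0.58, 0 of the 10 were 1.5-fold lower.

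Among the transporter and upper enzymes, Slc2a1 was at 6.09 CPM (76 UMIs) in the knockout library and 8.17 CPM (114 UMIs) in the wild type, with an interval of the log2 ratio (-0.86 to 0.01) that included 0. Hk2 was at 38.5 and 44.8 CPM (-0.22, -0.39 to -0.04), and Pfkp at 51.5 and 61.5 CPM (-0.25, -0.40 to -0.11). In the middle of the pathway Aldoa was at 246 and 325 CPM (-0.40, -0.47 to -0.33). Hk2, Pfkp and Aldoa were thus lower in the knockout beyond counting error. Gapdh was at 534 and 737 CPM (-0.47, -0.51 to -0.42), Pgk1 at 72.4 and 103 CPM (-0.51, -0.63 to -0.39), and Ldha at 202 and 245 CPM (-0.28, -0.36 to -0.21). Eno1 was level, at 111 and 108.5 CPM (0.03, -0.08 to 0.13). Hif1a was level too, at 64.6 and 60.5 CPM (0.09, -0.05 to 0.24). With Slc2a1, these were the 3 genes whose intervals included 0. Progenitor markers in these cells summed to 297 CPM (knockout) and 853 CPM (wild type), all 10 being detected in both, and the share of free RNA was higher in the wild type; with it subtracted, the log2 ratio of Pkm was -0.68 and that of Hif1a 0.31.

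**Figure D3:**
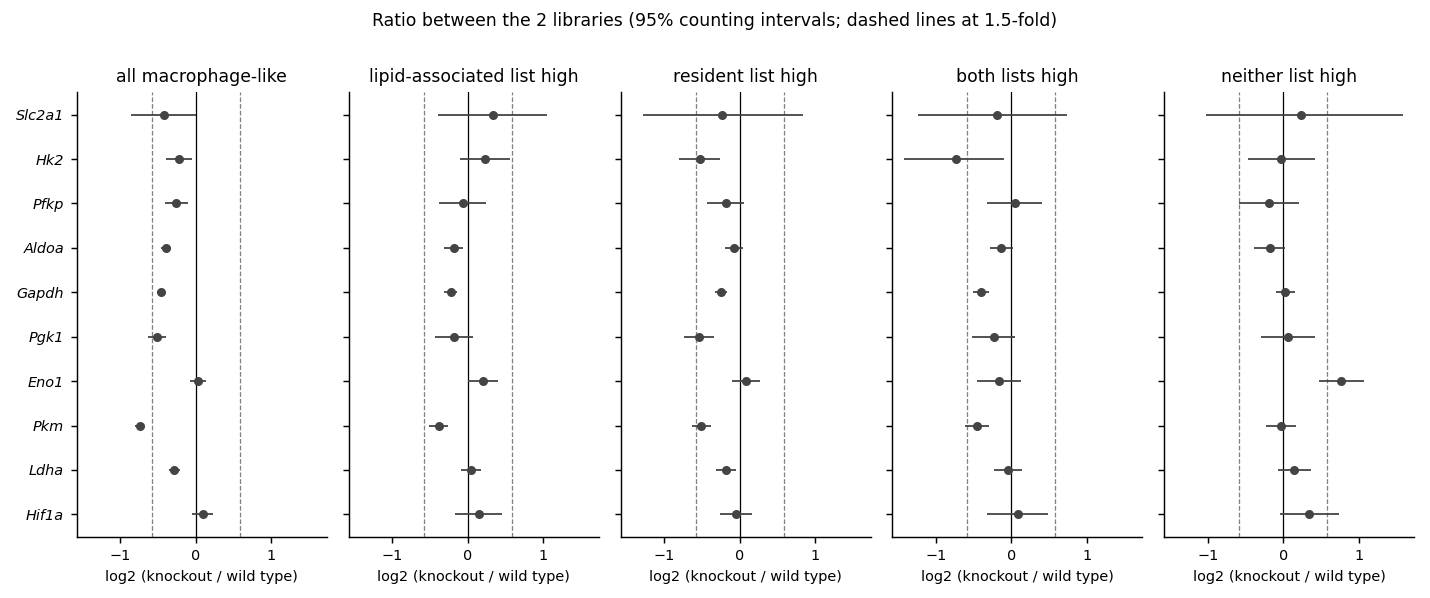
Ratio of the level in the knockout to that in the wild type (horizontal axis, log2 scale) for each gene in all macrophage-like cells and in the 4 macrophage states; bars are exact 95% counting intervals and dashed lines mark 1.5-fold. Pkm is at -0.74 over all macrophage-like cells but between -0.51 and -0.03 within the states.

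The libraries differed in the make-up of the macrophage-like gate. States were set from 7 lipid-associated genes (Trem2, Gpnmb, Cd9, Spp1, Mmp12, Itgax and Ctsk, summing to at least 2000 CPM) and 7 resident genes (Lyve1, Cd163, Folr2, Timd4, Cbr2, Pf4 and Fcna, summing to at least 1500 CPM), without use of the members. Only the lipid list was high in 11.7% (9.78 to 13.8, exact binomial interval) of macrophage-like cells of the knockout, against 22.6% (20.7 to 24.7) for the wild type. Only the resident list was high in 59.0% and 42.1%, both lists in 8.08% and 20.2%, and neither in 21.2% and 15.1%. These lists are of genes that themselves may differ between genotypes, so the shares depend on them; 179 knockout and 407 wild-type cells lay within 20% of a limit.

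Within the states the ratio of Pkm was nearer to 0, while those of some other genes were not. Pkm was at 362 CPM in knockout and 472 CPM in wild-type cells of the lipid state (log2 ratio -0.38, -0.51 to -0.26), and at 145 and 206 CPM in the resident state (-0.51, -0.64 to -0.38). It was at 340 and 466 CPM where both lists were high (-0.45), and at 222 and 227 CPM where neither was (-0.03, -0.24 to 0.17). With equal weight for the 4 states, its ratio was -0.36 and 0 of the 10 genes were 1.5-fold lower. The median of the 10 ratios was -0.01 in the lipid state and -0.21 in the resident state. In the resident state, Hk2 (32.7 against 47.1 CPM, -0.53) and Pgk1 (57.7 against 83.8 CPM, -0.54) had the lowest ratios. Eno1 was higher in the knockout where neither list was high, at 152 against 89.1 CPM (0.77, 0.48 to 1.07); monocyte markers summed to 540 and 327 CPM in those cells, and their part was not tested. Hif1a stayed between -0.05 and 0.34 in the 4 states.

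The lipid-associated state carried more glycolytic transcripts than the resident state in each library. Pkm was 2.50-fold higher in the knockout (362 against 145 CPM) and 2.29-fold higher in the wild type (472 against 206 CPM). Ldha was 2.32-fold and 1.99-fold higher, at 345 against 149 CPM and 334 against 168 CPM. Slc2a1 was 5.32-fold and 3.59-fold higher, from 29 against 19 UMIs in the knockout library and 44 against 15 UMIs in the wild type. Those 3 genes had the largest folds, and the transporter rests on few UMIs.

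In the lipid state of both libraries, 6 of the 10 genes were higher by 1.5-fold or more (Slc2a1, Aldoa, Gapdh, Eno1, Pkm and Ldha), against 10.5% of 2506 genes. Of the 10, 8 reached the 50 CPM level of those genes. Slc2a1, counted among the 6, did not reach it. Aldoa was 1.79-fold and 1.92-fold higher, Gapdh 1.72-fold and 1.69-fold, and Eno1 1.85-fold and 1.70-fold. Hk2 (1.82-fold and 1.07-fold), Pgk1 (1.70-fold and 1.33-fold) and Pfkp (1.48-fold and 1.36-fold) did not reach 1.5-fold in both. Hif1a was nearly level, 1.09-fold and 0.94-fold, with intervals that included no difference in both libraries. With a stricter gate it was 0.91-fold and 0.76-fold. The count of 6 fell to 3 of 10 (Slc2a1, Pkm and Ldha) when each cell had equal weight. It fell to the same 3 genes among cells of 4000 to 12000 UMIs, where the knockout had 25 cells of the lipid state. No share of all genes is given here for these settings, so the 3 have no background. Cells of the lipid state were deeper than those of the resident state, with medians of 14668 against 11091.5 UMIs in the knockout library and 8928 against 6374.5 UMIs in the wild type. By the estimate above, free RNA made up 5.12% and 12.1% of the lipid state and 4.79% and 17.5% of the resident state.

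Along the summed level of the lipid list, Pkm stood at 122, 176, 219, 292 and 431.5 CPM in knockout cells from under 500 CPM of the list to 4000 CPM and over. In the wild type it stood at 181, 193, 241, 342 and 557 CPM. The order was the same in both libraries, and at matched steps Pkm of the knockout was below that of the wild type in all 5. Aldoa went from 168 to 437 CPM in the knockout library and from 208 to 461 CPM in the wild type, and Slc2a1 from 3.13 to 15.6 CPM and from 3.11 to 13.8 CPM. Hk2 showed no such order in the wild type, where it was highest at the lowest step (58.3 CPM) and 42.2 CPM at the highest. Hif1a was between 55.6 and 69.4 CPM at all knockout steps and between 46.5 and 84.0 CPM at all wild-type steps. The lowest step held 39.5% of the gate in the knockout library and 12.7% in the wild type, the highest 8.47% and 21.6%. Median depth at the lowest and highest steps was 10431.5 and 13170 UMIs in the knockout and 5705 and 11350 UMIs in the wild type. Estimated free RNA was 5.99% and 3.77% at these steps of the knockout and 17.9% and 10.2% in the wild type. The part of depth and free RNA in the order was not tested.

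**Figure D4:**
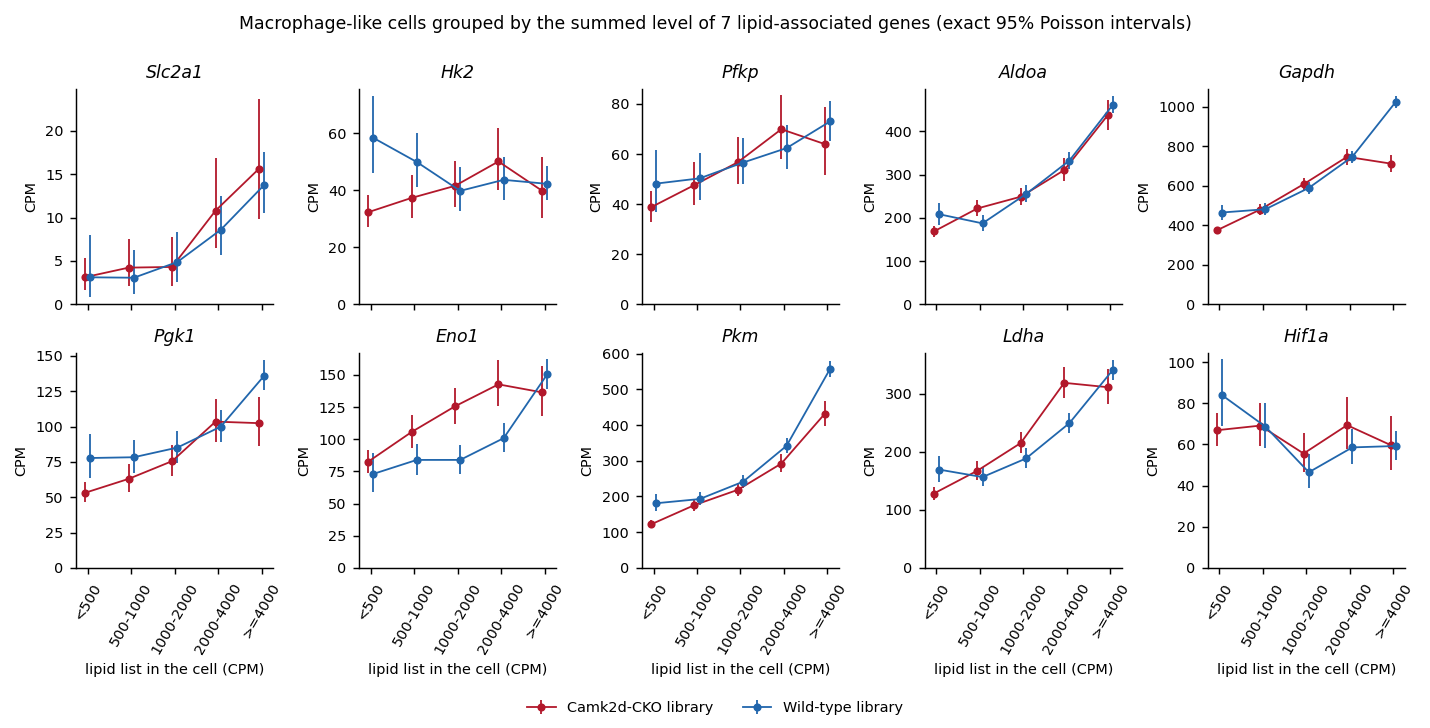
Level of each gene (vertical axis, CPM, linear) in macrophage-like cells grouped by the summed level of the 7 lipid-associated genes in the cell (horizontal axis, CPM); bars are exact 95% Poisson intervals, knockout red and wild type blue. Pkm and Aldoa are highest at the highest step in both libraries. Hif1a ranges from 46.5 to 84.0 CPM over the steps of both libraries.

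Macrophage-like cells were also split by Il1b, the inflammatory cytokine whose transcription HIF-1α is known to promote in activated macrophages. Cells with at least 500 CPM of Il1b made up 35.6% of the knockout and 17.4% of the wild type. In the knockout, Hk2 was at 50.7 CPM in these cells and 27.8 CPM in cells without Il1b. In the wild type it was at 41.4 and 46.9 CPM. Hif1a was at 68.9 and 59.0 CPM in the knockout library and at 60.3 and 63.4 CPM in the wild type, and Pkm at 223 and 195 CPM and at 336 and 336 CPM. The Hk2 level was thus 1.82-fold in the knockout and 0.88-fold in the wild type. No share of all genes is given here for this split. Median depth with and without Il1b was 12351.5 and 9023 UMIs in the knockout and 7979 and 6655 UMIs in the wild type. Its part was not tested.

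The rest of the pathway and its surroundings were read from lists of other genes, at a mean of at least 10 CPM. Of 22 other glycolysis genes, 7 reached it in macrophage-like cells, and 0 were 1.5-fold apart between the libraries, with a median log2 ratio of -0.36 against -0.11 over all 7274 genes at that level; 5.11% of those genes were lower and 3.16% higher. Gpi1, the glucose-6-phosphate isomerase and the most abundant of the list, was at 157 CPM in the knockout library and 201 CPM in the wild type. In the lipid state, 3 of the 7 (Pgam1, Hk3 and Tpi1, chosen after their values were seen) were at least 1.5-fold higher than in the resident state of both libraries, against 7.76% of 6916 genes, and 1 was lower by as much, against 10.1%. The lower one was Pfkfb3, which makes the activator of phosphofructokinase, at 11.9 against 38.5 CPM in the knockout (-1.69) and 17.0 against 69.7 CPM in the wild type (-2.03), the widest gap of the 7. Pgam1, the mutase between Pgk1 and Eno1, was at 150 and 65.5 CPM in these states of the knockout library and at 176 and 83.8 CPM in those of the wild type.

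Of 10 genes for HIF subunits and regulators, 5 reached 10 CPM, 0 were 1.5-fold apart (median -0.14), and the most abundant, Egln2 (a prolyl hydroxylase that marks HIF-1α for degradation), was at 36.4 and 38.2 CPM. Of 18 HIF target genes outside glycolysis, 12 reached it and 2 were lower in the knockout, against 5.11% of 7274 genes, with a median of -0.05. Vegfa, the angiogenic growth factor, was at 10.8 and 20.6 CPM (-0.93), and Pdk1, the kinase that shuts pyruvate dehydrogenase, at 11 and 18.3 CPM (-0.74). Of these 12, 4 were at least 1.5-fold higher in the lipid than in the resident state of both libraries and 0 lower. Of the 5 regulators 0 were higher and 1 lower. Over 6916 genes the shares were 7.76% higher and 10.1% lower. Vegfa was among the 4, at 32.7 CPM in the lipid and 2.27 CPM in the resident state of the knockout and at 41.5 and 5.91 CPM in the wild type. Bnip3l, the mitophagy receptor and the most abundant of these targets, was near level between the libraries (123 and 133 CPM).

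Around pyruvate and the branch points the picture was similar. Of 10 genes for pyruvate dehydrogenase, its kinases and the pyruvate carrier, 5 reached 10 CPM and 0 were 1.5-fold apart (median -0.23), with the carrier subunit Mpc2 at 90.9 and 106 CPM. Of 6 genes of gluconeogenesis, 2 reached it and 0 were apart, G6pc3 being at 14.3 and 20.3 CPM. Of 7 genes of the pentose phosphate pathway, 6 reached it and 1 was lower, against 5.11% of 7274 genes. This was Pgls, the lactonase of the pathway, at 151 and 228 CPM (-0.60, -0.68 to -0.51). The median of the 6 was -0.42. These lists were thus mostly below 0 without passing 1.5-fold.

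In T-like cells Hif1a was the member furthest apart between the libraries. Hif1a was at 214 CPM (203 to 225, 1572 UMIs) in the knockout library and 106 CPM (96.0 to 116, 449 UMIs) in the wild type, a log2 ratio of 1.02 (0.87 to 1.17). Of the 10 genes, Hif1a alone was past 1.5-fold on the higher side, against 5.47% of 2524 genes, and the median of the 10 was 0.16 against 0.12 over those genes. Among cells of 4000 to 12000 UMIs the ratio was 0.96 (0.77 to 1.15), and with free RNA subtracted it was 1.31. Thinned to 2000 UMIs, Hif1a was seen in 31.9% of knockout and 18.5% of wild-type T-like cells (median depths of 5301 and 3918 UMIs), with 3.03% and 7.47% in erythroid-like cells as background (2171.5 and 2112 UMIs); unthinned, the T-like shares were 56.8% and 32.7%.

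The subsets of T-like cells differed in Hif1a as well. Cells with a Cd4 UMI and none of Cd8a or Cd8b1 had 332 CPM in the knockout library and 157 CPM (43 UMIs) in the wild type. Cells with a Cd8a or Cd8b1 UMI and none of Cd4 had 149 and 95.8 CPM, and cells with neither 179 and 107 CPM. Hif1a was therefore highest in the Cd4 subset of each library, 2.22-fold and 1.64-fold over the Cd8 subset, and higher in the knockout within each subset, with log2 ratios of 1.08, 0.64 and 0.74. The Cd4 subset was 28.8% of knockout and 6.75% of wild-type T-like cells, a share that depth bears on, since Cd4 gives few UMIs per cell. Foxp3, the marker of regulatory T cells, summed to 7.35 and 6.82 CPM in all T-like cells. Markers of type 2 innate lymphoid cells summed to 789 and 706 CPM there, with all 10 detected in both. Natural killer markers, which the T-like gate did not limit, summed to 1596 and 1026 CPM, also with all 10 detected. The part of such cells in the Hif1a ratio was not tested. The enzymes of T-like cells lay between -0.39 for Hk2 and 0.51 for Slc2a1, and Ldha was at 303 and 253 CPM.

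The other myeloid classes were small. Monocyte-like cells numbered 79 and 80, and only 3 of their 10 markers in the knockout library and 1 in the wild type were 2-fold over every other class; their macrophage markers summed to 1767 and 2658 CPM. Pkm was at 252 and 529 CPM there (-1.07, -1.31 to -0.83) and Pgk1 at 107 and 197 CPM (-0.88), while Hk2 was at 124 and 40.9 CPM (1.59, 0.99 to 2.24). Among monocyte-like cells of 4000 to 12000 UMIs, Hk2 was at 93.1 and 57.7 CPM, an interval of 42 against 49 cells that included no difference (-0.18 to 1.60), and Pkm at 279 and 324 CPM (-0.21). Both ratios were smaller among these cells, whose median depths still differed (8965.5 and 6120 UMIs). Conventional dendritic-like cells, 139 and 180, had less Pkm in the knockout (137 against 299 CPM, -1.12, -1.34 to -0.91), also among cells of 4000 to 12000 UMIs (42 and 144 cells, 81.1 against 164.5 CPM, -1.02). Aldoa was at 150 and 273 CPM in them (-0.87), and at 124 and 156 CPM in that depth range (-0.33). Their macrophage markers summed to 551 CPM in the knockout library and 1010 CPM in the wild type, all 10 being detected in both. The log2 ratio of Pkm was below 0 in every class. Erythroid-like cells aside, it ran from -0.13 in T-like to -1.12 in dendritic-like cells. In endothelial-like cells (-0.20) the interval included 0. Among cells of 4000 to 12000 UMIs it also included 0 in monocyte-like (-0.63 to 0.20) and B-like cells (-0.14, -0.41 to 0.12). Estimated free RNA was higher in the wild type in each class. Pkm ratios with it subtracted are given above for macrophage-like and progenitor-like cells only.

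To see which genes resembled the members, levels in 7 classes (those of 100 or more cells in each library, 14 points) were compared among 2498 genes. The 5 genes most like Hif1a were Zc3hav1 (Pearson r 0.95), Nsd3 (0.95), Lnpep (0.94), Chd3 (0.93) and Mycbp2 (0.92). The 5 most like the mean of the other 9 members were Ndufa13 (0.98), Serf2 (0.98), Ndufs4 (0.97), Eif5a (0.97) and Atp5g1 (0.97). The points of a library share their depth and free RNA, and both erythroid-like points are low for nearly every gene, so these are descriptions only.

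Sequence copies limit Eno1 and Gapdh. Of the 91-base windows in the last 500 bases of Eno1, 52.7% also occur in Eno1b, which received 189 and 226 UMIs against 6805 and 6215 for Eno1. For Gapdh 18.5% of such windows occur in Gm10358 or Gm3839, which received 0 and 0 UMIs and 107 and 131 UMIs. The split between such copies is uncertain. For the other 8 genes no such window was shared.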

How the data were processed

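Per the submitters' processing notes, the data were processed with Cell Ranger 5.0.0 and Seurat 4.1.1 on the mouse build mm10. The authors deposited 1 gene by barcode matrix of whole-number UMI counts per library, not normalized, and these counts were used as they are. The members and all lists were chosen with earlier results of these data known. Barcodes were kept from 500 UMIs and 200 detected genes on, if mitochondrial UMIs were 20% or less (996 knockout and 223 wild-type barcodes were removed). Gates used absolute CPM limits on summed marker lists. Macrophage-like cells had at least 7000 CPM of 10 macrophage markers and under 3000 CPM of progenitor markers. Progenitor-like cells had at least 10000 CPM of their markers and under 2000 CPM of macrophage markers. Erythroid-like cells had at least 30% haemoglobin UMIs. Other classes had at least 4 of their markers (monocytes 3) with fewer than 3 of another lineage. The T-like gate was the exception, as it did not limit natural killer markers. Cells with 4 or more of 8 neutrophil markers (24 knockout and 6 wild-type cells) were kept out of the monocyte gate. These limits, the strata and the state limits were chosen after seeing the data. The state lists were cut from 10 to 7 genes by leaving out Lpl, Fabp5, Lgals3, Selenop, Gas6 and Mrc1, which other cells express. No doublet caller was run; cells of a second lineage were left out of the macrophage-like gate (151 and 212).

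For each class in a library, its cells' UMIs were added up and scaled to CPM. Levels have exact Poisson intervals, ratios exact conditional intervals, and shares Clopper-Pearson intervals, all at 95% and for counting error only. Background counts used genes with a mean of at least 50 CPM and at least 30 UMIs in one of the groups; other lists needed 10 CPM. Free RNA was profiled from barcodes with intermediate levels of both macrophage and progenitor markers, and its share in a class was the median, over macrophage or progenitor markers foreign to that class, of the level relative to this profile. Likeness was Pearson correlation of log2(CPM + 10). The first Aldoa row of the feature list was used; a second row of that symbol held 1 and 0 UMIs. Named genes were all 10 members and, of each other list, the most abundant gene. Those at least 1.5-fold apart in macrophage-like cells were named too (at most 6 per list). Pgam1, Hk3, Tpi1 and Pfkfb3 fell outside this rule. They were named for their ratios between the lipid and resident states, after these were seen. The ratio and interval computation was tested on simulated counts. Python 3.11.15, numpy 2.4.6, scipy 1.17.1, pandas 2.3.3 and matplotlib 3.10.9 were used. Alternatives were other scalings, equal weight per cell, a stricter cell filter, a stricter gate, gates after thinning to 2000 UMIs, a depth range of 4000 to 12000 UMIs, equal weight per state, other floors and a 2-fold limit, and, added after seeing the data, subtraction of free RNA and other state limits.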

Additional observations from a re-analysis of the deposited data

Results flagged for a closer look

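With cells of all depths added up, 3 of the genes had ratios between the libraries in opposite directions in different cell classes. These ratios were past 1.5-fold and past counting error on each side. The differences between classes were not tested. For Eno1 and Hif1a the lower side is the erythroid-like class alone. In that class all 10 members were at least 1.5-fold lower in the knockout, and the median log2 ratio over 735 genes was -1.66, so its values are not particular to these genes. Hk2 was higher in the knockout in monocyte-like cells (log2 ratio 1.59) and dendritic-like cells (0.71), and lower in B-like cells (-0.86) and erythroid-like cells (-1.91). In B-like cells, free RNA alone would give 119% and 67.3% of the Hk2 level, and antibody-secreting markers summed to 4335 CPM in the knockout library and 1132 CPM in the wild type. Among cells of 4000 to 12000 UMIs, the Hk2 intervals included no difference in monocyte-like (0.69, -0.18 to 1.60) and dendritic-like cells (0.49, -0.23 to 1.18). In that range Hk2 stayed lower in B-like (-1.27, -2.30 to -0.34) and erythroid-like cells (-3.62, -9.12 to -0.66). Eno1 was higher in the knockout in endothelial-like cells (1.21, from 76 and 18 UMIs) and lower in erythroid-like cells (-1.69). Hif1a was higher in the knockout in T-like cells (1.02) and lower in erythroid-like cells (-1.48). In the same depth range, Eno1 was at 0.60 (-0.58 to 1.86) in endothelial-like and -0.82 (-3.72 to 2.09) in erythroid-like cells. Both Eno1 intervals thus included no difference. Hif1a was at 0.96 (0.77 to 1.15) in T-like and -1.55 (-4.24 to 0.81) in erythroid-like cells of that range. The erythroid-like levels of all these genes lie near those that free RNA alone would give. Free RNA was estimated at 12.6% of knockout and 42.4% of wild-type erythroid-like UMIs.

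The knockout library also held glycolytic isozymes of male germ cells that no comparison uses. It had 700 UMIs of Ldhc, 150 of Gapdhs, 122 of Pgam2, 61 of Pgk2 and 12 of Aldoart2, while the wild type had 2, 1, 0, 0 and 0. In the knockout, 9 barcodes with at least 2 sperm markers held 68.9% of the Ldhc and 98.0% of the Gapdhs UMIs, against 0.526% of the Ldha and 0.153% of the Gapdh UMIs. Of these 9 barcodes, 2 were in the progenitor-like gate and 2 in the macrophage-like gate. Progenitor-like cells of the knockout held 104 UMIs of Ldhc and 75 of Gapdhs, and macrophage-like cells 12 and 0. Leaving the barcodes out, a choice made after seeing the data, left progenitor-like Hk2 at 318 CPM and Ldha at 166 CPM in the knockout.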

How the results depend on the processing

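The count of members at least 1.5-fold lower in knockout macrophage-like cells, 1, became 0 with a stricter gate, 0 with equal weight per macrophage state, 0 at 2-fold, 2 with gates drawn after thinning and 5 among cells of 4000 to 12000 UMIs; with equal weight per state it was 0 under both the higher and the lower state limits. The 2 were Slc2a1 and Pkm. For the stricter gate, equal weight per state and gates after thinning, no share of all genes is given here. The 5 were Slc2a1, Hk2, Gapdh, Pgk1 and Pkm, the last at -0.78; under the stricter gate Pkm was at -0.58. The count of members higher was 0 under all settings. Genes lower numbered 43 with median-of-ratios scaling, which moved all ratios by 0.07, 128 of 2590 among cells of 4000 to 12000 UMIs, 372 at a 10 CPM floor and 4337 with no floor; genes higher numbered 230 and 2290 at those floors. With totals that leave out mitochondrial, ribosomal and haemoglobin genes, 103 were lower and 101 higher. Members higher in the lipid state, 6, numbered 3 with equal weight per cell and 3 among cells of 4000 to 12000 UMIs. No share of all genes is given here beside these counts of 3. Hk2, Pfkp, Aldoa, Gapdh, Pgk1 and Pkm kept a ratio below 0 in macrophage-like cells under all 11 settings. In the main setting the median over 2634 genes was also below 0, at -0.07. How many of those genes stayed below 0 is not given here. The causes of these shifts were not tested. No paired analysis was possible because each genotype has 1 library. For low genes depth is the limit: Slc2a1 had 76 and 114 UMIs in macrophage-like cells.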
